A study of Rattus norvegicus with 6 samples.

Results

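The genes described here carry glucose into the cell and break it down: glucose carriers, the enzymes of glycolysis, the lactate enzymes and carriers, the pentose phosphate pathway, the entry of pyruvate into mitochondria and the tricarboxylic acid (TCA) cycle. They were chosen by symbol, as all probe sets annotated to 1 of 42 listed genes. Of these, 40 had such a probe set and 39 could be tested, among 14217 genes measured in all. Gapdh was annotated only on manufacturer control probe sets, which were left out of the test and are described below. Pkm shared its probe set with a second symbol and Fh had none in the annotation, so neither was analysed here. The 39 tested genes were represented by 61 probe sets, and 15 genes had more than 1. The lists were made with earlier results of these data known.

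RNA came from primary Schwann cells of rat sciatic nerve, the glial cells that wrap peripheral axons. Cells of both groups carried RafER, the Raf kinase joined to an estrogen receptor domain so that tamoxifen switches it on. In 3 experiments, which the series calls independent, cells held in a minimal medium without serum received tamoxifen for 24 h (3 arrays) or the ethanol vehicle (3 arrays). The source labels speak of treated animals, whereas the design text, which was followed, places the treatment in culture. How RafER was introduced, and whether the cultures were clonal or pooled from several animals, is not stated in the labels. With no tamoxifen-treated cells lacking RafER among the 6 samples, changes owed to the drug alone and changes owed to Raf cannot be told apart.

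Glycolysis turns glucose into pyruvate, first spending ATP in preparatory steps and then regaining it in pay-off steps. Pyruvate is then either reduced to lactate and exported or taken into mitochondria, where pyruvate dehydrogenase makes acetyl-CoA for the TCA cycle. The pentose pathway branches off near the top and makes NADPH and the ribose used for nucleotides. Schwann cells are known for supplying axons with lactate, and growing cells in general raise glucose use. Several of these enzymes come as isozymes from separate genes, and the pyruvate dehydrogenase kinases (PDKs) close the mitochondrial entry by inactivating the dehydrogenase.

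The deposited values are log2 expression per probe set after RMA, which holds no detection calls, so a low value can be background. Differences are log2 units, tamoxifen minus vehicle, with the standard error (SE) of limma's fit over all 31042 tested probe sets. A gene is called past the threshold at a Benjamini-Hochberg adjusted p below 0.05 by its probe set of highest mean, and levels of different genes are not compared. Of 8 Schwann markers 5 were measured, all at or above the 40th percentile of mean level. S100b was lower by 0.76 and Ngfr by 1.53 after tamoxifen. The mean of the 5 was 10.19 to 10.47 on tamoxifen arrays and 10.92 to 11.25 on vehicle arrays. All 6 macrophage and all 3 endothelial markers measured lay below the 40th percentile (5.67), and their list means did not exceed 4.84. Of 6 fibroblast markers 4 lay below it, while Col1a1 and Col1a2 were bright in both groups and lower after tamoxifen. Pdgfra, among the dim ones, was higher by 0.52. The fibroblast mean was 7.11 to 7.24 on tamoxifen arrays and 7.27 to 7.33 on vehicle arrays. Of the 4 muscle markers Acta1 was lower by 2.44, and of the 4 neuronal markers none passed. What part these shifts play in the results below was not tested. On vehicle array 1 the 5′ signal was weak: the mean 3′ minus 5′ difference over 3 control transcripts was 0.84 there, and 0.16 to 0.27 on the remaining 5 arrays.

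With tamoxifen, 15 of the 39 genes were higher, 4 were lower and 20 did not pass. The rises were spread over glucose uptake (Slc2a3, Slc2a1), hexokinase and phosphofructokinase (Hk2, Pfkp, Pfkl), the pay-off steps (Eno1, Pgk1), lactate (Slc16a1, Ldha), the pentose pathway (Rpia, Tkt, Pgd) and the TCA cycle (Idh3a, Mdh2, Cs). The 4 lower genes were Pdk2, Pfkm, Pdhb and Mdh1. The share higher was 38.5% of the members, against 13.9% of all genes, and the share lower was 10.3%, against 17.3% of all genes. Among genes at or above the 40th percentile of mean level, where 38 of the 39 members lay (the exception was Pdk4), 18.0% were higher and 23.2% lower. The median change was 0.15 over the members and 0.01 over all genes. All 3 tamoxifen values lay above all 3 vehicle values for 18 genes and below them for 5, against 23.7% and 25.4% of all genes. By probe set, 20 of 61 were higher and 9 lower, where 11.5% and 12.9% of all probe sets were. The change reached 1 log2 unit in 7 of the 15 higher genes and in 1 of the 4 lower genes. Among all 14217 genes measured, 813 of 1979 rises past the threshold were this large, as were 858 of 2454 falls. In bulk RNA of this kind, a change in the number of cells of a type and a change in RNA per cell cannot be told apart.

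**Figure D1:**
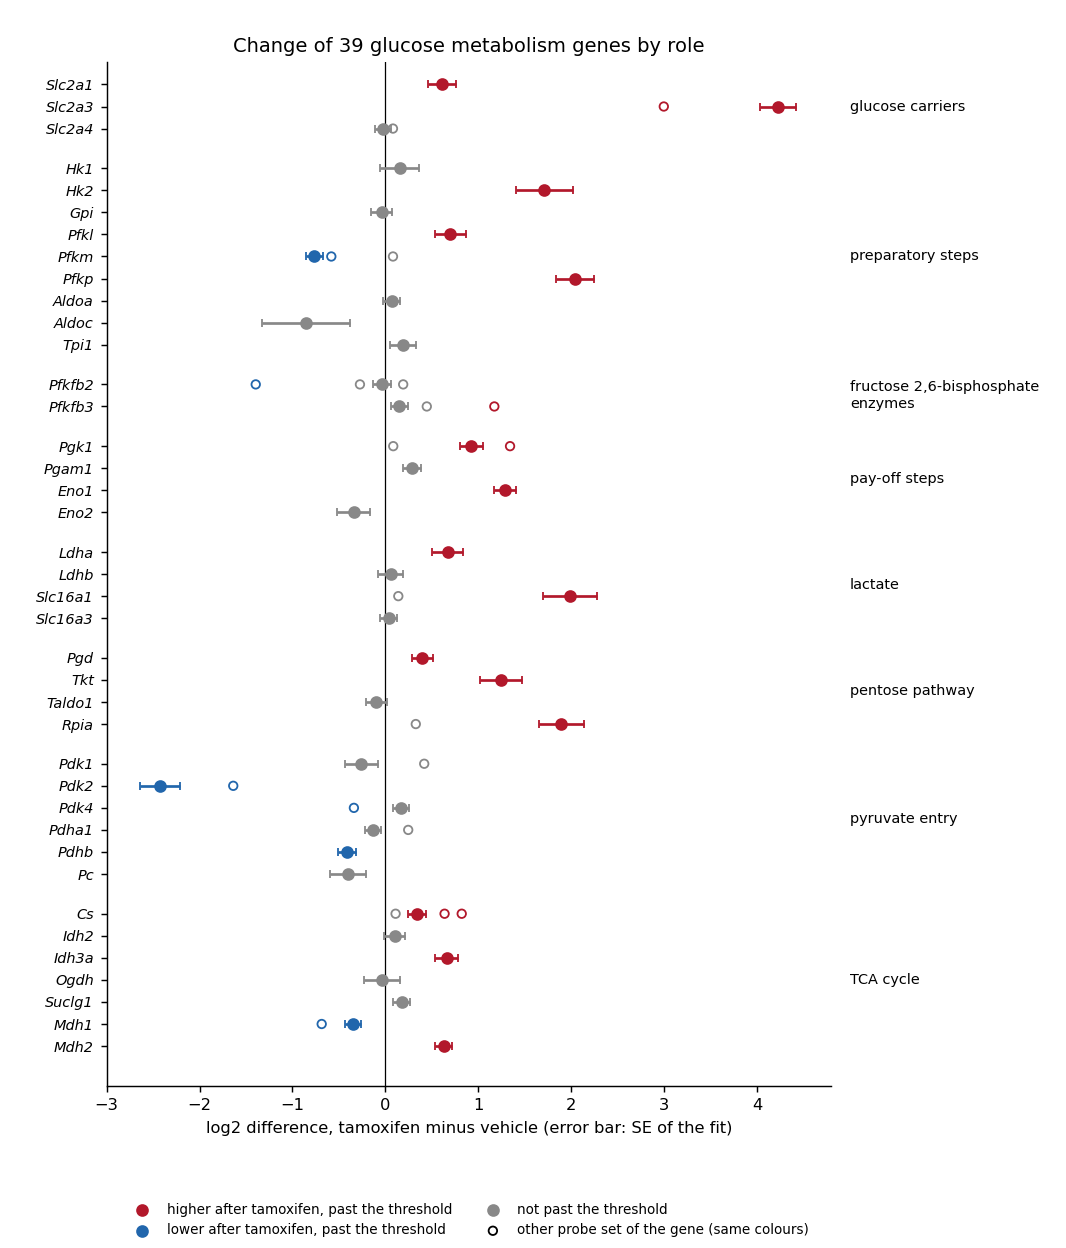
The horizontal axis is the log2 difference, tamoxifen minus vehicle, of each of the 39 tested genes, grouped by role down the page. Filled points with SE bars are the brightest probe set of a gene, open circles its other probe sets, and colours show the call. Slc2a3 lies farthest to the right (4.22) and Pdk2 farthest to the left (-2.43).

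The glucose carriers differed widely in their response. Slc2a3 encodes GLUT3, a high-affinity carrier best known from neurons. Its probe set of highest mean read 9.03, 8.89 and 9.35 on the tamoxifen arrays, against 4.52, 4.93 and 5.15 on the vehicle arrays. The groups were far apart, with a difference of 4.22 ± 0.19 (SE; limma, adjusted p = 1.05e-04), or 18.7-fold as measured. The vehicle mean of 4.87 lay below the 40th percentile (5.67), where signal and background cannot be told apart, so the difference and the fold may be minimum values. With that limit, 24 of the 14217 genes had a larger measured rise. The second Slc2a3 probe set gave 3.00 ± 0.25, a rise as well.

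Slc2a1 encodes GLUT1, the widespread basal glucose carrier. It read 9.40, 9.44 and 9.81 after tamoxifen, against 9.11, 8.98 and 8.72 in vehicle, so every tamoxifen array was above every vehicle array. The difference was 0.61 ± 0.15 (adjusted p = 0.0300), 1.53-fold. With experiments as a block the adjusted p was 0.0593 and the call was lost, as it was without tamoxifen array 2 or 3 or vehicle array 2 or 3 (adjusted p of 0.0642 to 0.0788, differences of 0.48 to 0.67). Slc2a4, the insulin-responsive carrier GLUT4 of muscle and fat, stayed between 5.99 and 6.15 after tamoxifen and between 6.03 and 6.09 in vehicle (difference -0.02 ± 0.09, adjusted p = 0.879). Its sign changed with the probe sets used.

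Hexokinase traps glucose in the cell by phosphorylation. Hk2, the form typical of insulin-sensitive and fast-growing tissues, read 7.49, 7.40 and 8.59 after tamoxifen, against 5.99, 6.26 and 6.10 in vehicle. It rose by 1.71 ± 0.31 (adjusted p = 0.0092), with the tamoxifen array of experiment 3 the highest of the 6, and left-out arrays gave 1.33 to 1.93. The call was lost without moderation of the variances (adjusted p = 0.0694) and against a minimum fold of 1.5 (0.0790). Hk1, the housekeeping form, had 9.81 to 10.10 after tamoxifen and 9.43 to 10.22 in vehicle (0.15 ± 0.21, adjusted p = 0.661), and its dimmer probe set gave 0.16. The 3 control probe sets for Hk1 read otherwise. They were 0.54 (3′), 0.60 (middle) and 0.84 (5′) higher, with groups that did not overlap, and were not tested. Vehicle array 1, the one with weak 5′ signal, was the lowest for each of these 3, and its middle probe set read 7.72 there, against 8.37 and 8.25 on the other vehicle arrays and 8.62 to 8.81 after tamoxifen.

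The phosphofructokinases, which commit sugar phosphate to glycolysis, split by isozyme. Pfkp, the platelet type, read 9.17, 9.14 and 9.44 after tamoxifen, against 7.41, 7.46 and 6.76 in vehicle. Its rise of 2.04 ± 0.20 (adjusted p = 0.0012) was 4.11-fold. Pfkl, the liver type, was higher by 0.70 ± 0.17 (adjusted p = 0.0258), at 6.99, 6.84 and 7.44 after tamoxifen against 6.53, 6.26 and 6.39 in vehicle. That call was lost without tamoxifen array 1 or vehicle array 2 or 3 (adjusted p of 0.0547 to 0.0796). It was also lost without both arrays of experiment 1 (0.0641).

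Pfkm, the muscle type, went the other way. It read 7.18, 7.25 and 7.06 after tamoxifen, against 7.98, 7.86 and 7.96 in vehicle. It fell by 0.77 ± 0.09 (difference -0.77, adjusted p = 0.0021) and the call held without any single array, but not against a minimum fold of 1.5 (adjusted p = 0.404). Of its other probe sets 1 was lower too (-0.58, adjusted p = 0.0430) and the dimmest gave 0.08 (adjusted p = 0.663).

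The other preparatory enzymes did not pass. The isomerase Gpi (-0.04 ± 0.11), the main aldolase Aldoa (0.07 ± 0.09) and the triose phosphate isomerase Tpi1 (0.19 ± 0.14) were bright in both groups. Aldoc, the brain type aldolase, read 7.641, 7.504 and 7.958 after tamoxifen, against 7.953, 7.974 and 9.736 in vehicle. Its difference of -0.85 ± 0.47 (adjusted p = 0.254) rested on vehicle array 3 and was -0.26 without it.

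Pfkfb2 and Pfkfb3 make and degrade fructose 2,6-bisphosphate, the strongest activator of phosphofructokinase, and their probe sets disagreed. By the brightest probe sets neither passed (-0.04 ± 0.09 and 0.15 ± 0.09). A dimmer Pfkfb3 probe set read 6.95, 6.94 and 7.18 after tamoxifen, against 6.58, 5.81 and 5.16 in vehicle, a rise of 1.17 ± 0.33 (adjusted p = 0.0440). A dimmer Pfkfb2 probe set read 5.16, 4.84 and 4.44 after tamoxifen, against 6.68, 5.87 and 6.08 in vehicle, a fall to a low level (-1.40 ± 0.26, adjusted p = 0.0097). The other probe sets gave 0.45 for Pfkfb3 (adjusted p = 0.0570) and -0.27 and 0.19 for Pfkfb2, which did not pass. With the mean of all probe sets, Pfkfb3 was higher by 0.59 (adjusted p = 0.0127) and Pfkfb2 was lower (-0.38, adjusted p = 0.0163).

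In the pay-off steps, Eno1 and Pgk1 rose, and both were bright in both groups. Eno1, the common enolase, read 12.37, 12.48 and 12.70 after tamoxifen, against 11.09, 11.26 and 11.33 in vehicle (1.28 ± 0.12, adjusted p = 9.56e-04). The within-experiment changes were close to each other, at 1.28, 1.22 and 1.36. Pgk1, phosphoglycerate kinase, read 12.69, 12.60 and 12.67 after tamoxifen, against 11.70, 11.97 and 11.51 in vehicle (0.93 ± 0.13, adjusted p = 0.0035). Its second probe set rose by 1.34, and the dimmest, near the floor of the array, gave 0.08.

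Pgam1, phosphoglycerate mutase, was above vehicle on every tamoxifen array (12.95, 12.99 and 12.99, against 12.54, 12.82 and 12.70) but did not pass (0.29 ± 0.10, adjusted p = 0.0772). Eno2, the neuronal enolase, had a difference of -0.34 ± 0.18 (adjusted p = 0.221), and of -0.17 without vehicle array 1. Gapdh, measured by the 3 control probe sets, was 0.34 (3′), 0.48 (middle) and 0.42 (5′) higher without a test. The 3′ values were 13.25, 13.25 and 13.18 after tamoxifen, against 12.74, 12.97 and 12.95 in vehicle, and the groups did not overlap for any of the 3. Vehicle array 1 was again the lowest.

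**Figure D2:**
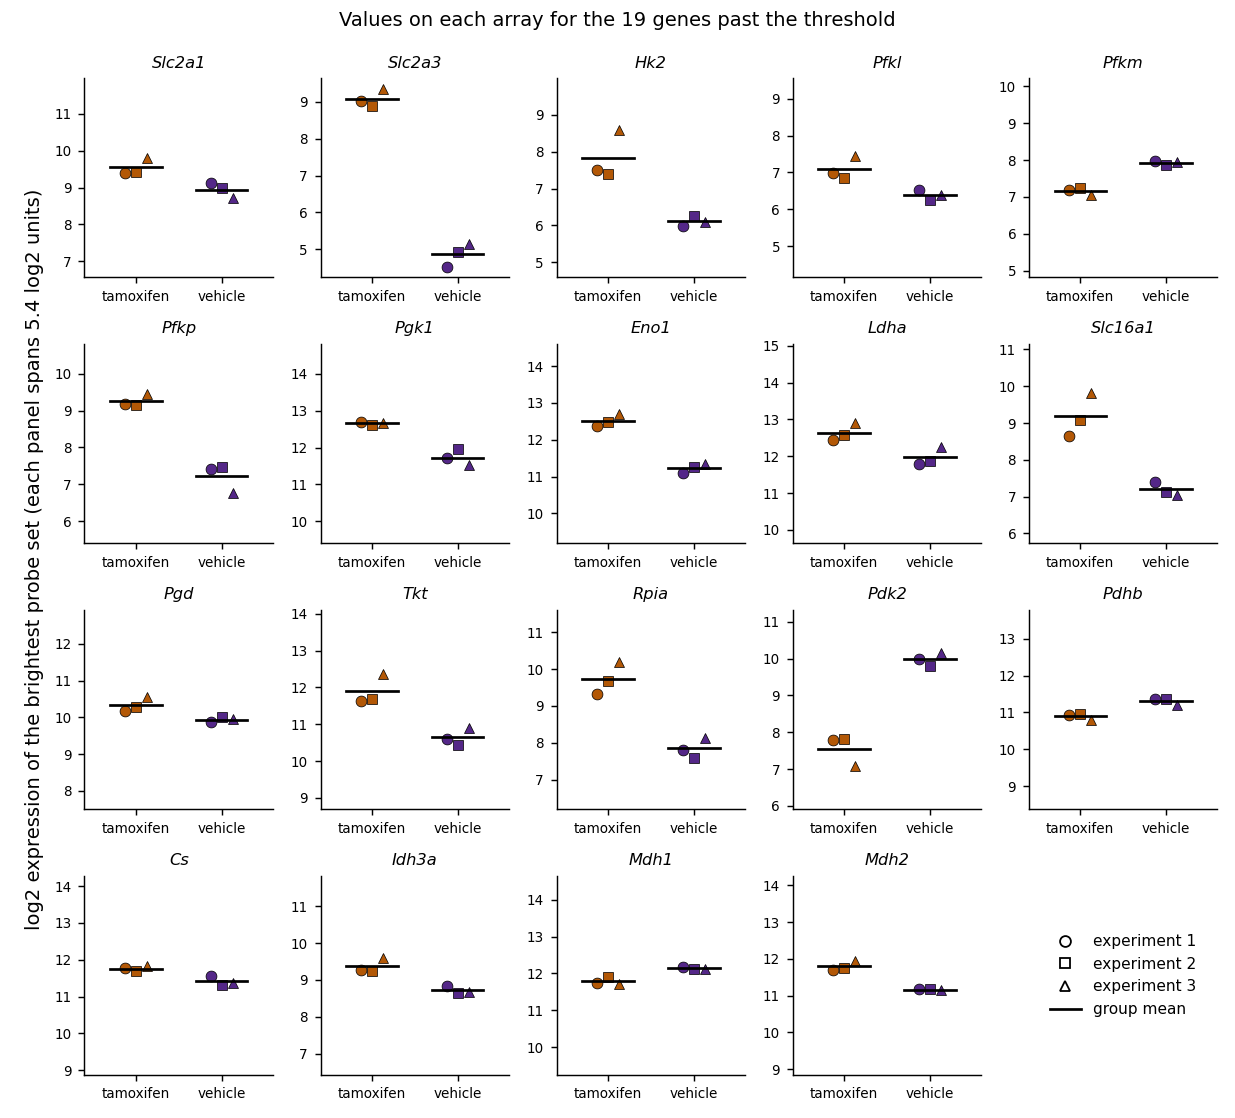
Each panel shows the log2 expression of 1 of the 19 genes past the threshold on all 6 arrays, tamoxifen left and vehicle right, with symbols for the experiment and a line for the group mean. Panels have their own vertical axes of equal length. The groups are separate in all 19 panels, by the widest gap for Slc2a3 and Pdk2.

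At the lactate branch, Slc16a1 and Ldha were higher. Slc16a1 encodes MCT1, which moves lactate and pyruvate together with protons across the plasma membrane. It read 8.65, 9.07 and 9.83 after tamoxifen, against 7.41, 7.14 and 7.05 in vehicle, a rise of 1.99 ± 0.29 (adjusted p = 0.0041). The spread among tamoxifen arrays (SD 0.60) was wider than among vehicle arrays (SD 0.19), and the rise was 1.25, 1.93 and 2.78 in experiments 1, 2 and 3. Its dimmer probe set gave 0.14 (adjusted p = 0.441).

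Ldha, the lactate dehydrogenase subunit that favours lactate formation, read 12.44, 12.59 and 12.90 after tamoxifen, against 11.79, 11.87 and 12.26 in vehicle (0.67 ± 0.17, adjusted p = 0.0298). In both groups the array of experiment 3 was the highest, and the within-experiment changes were 0.65, 0.72 and 0.64. With the experiment as a block the adjusted p was 0.0059, whereas the call was lost without tamoxifen array 2 or 3 or vehicle array 1 or 2 (0.0687 to 0.0879) and without both arrays of experiment 1 (0.0659). Ldhb, the subunit typical of oxidative tissue, showed 0.06 ± 0.14 (adjusted p = 0.816). Slc16a3, the lactate exporter MCT4 of glycolytic cells, stayed at 6.07 to 6.23 after tamoxifen and 6.06 to 6.16 in vehicle (0.03 ± 0.09, adjusted p = 0.826). The signs of Ldhb and Slc16a3 changed under some alternatives.

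The pentose pathway had 3 of its 4 listed genes higher (75%, against 13.9% of all genes) and none lower (17.3% of all genes were). Of 6 measured other genes of this pathway, 2 were higher (33.3%) and 1 lower (16.7%). Rpia, the isomerase that makes ribose 5-phosphate, read 9.32, 9.69 and 10.20 after tamoxifen, against 7.81, 7.60 and 8.14 in vehicle (1.89 ± 0.24, adjusted p = 0.0028). A second Rpia probe set gave 0.33 ± 0.10 (adjusted p = 0.0603), with groups that did not overlap. Tkt, the transketolase that links pentoses back to glycolysis, read 11.63, 11.68 and 12.37 after tamoxifen, against 10.61, 10.43 and 10.91 in vehicle (1.25 ± 0.23, adjusted p = 0.0092). The call was lost without moderation of the variances (0.0665) and against the minimum fold (0.153).

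Pgd, an NADPH-forming dehydrogenase of the pathway, was higher by 0.40 ± 0.11 (adjusted p = 0.0466). It read 10.182, 10.289 and 10.547 after tamoxifen, against 9.876, 9.997 and 9.947 in vehicle. The call held in only 1 of the 6 runs with an array left out (lost without tamoxifen array 2 or 3 or any vehicle array, adjusted p of 0.0868 to 0.105). It was also lost without both arrays of experiment 1 (0.0777), with median centring (0.0647) and with the trended robust variance model (0.0653). Taldo1, transaldolase, was bright in both groups, at 12.82 to 13.08 after tamoxifen and 12.91 to 13.17 in vehicle (-0.10 ± 0.12, adjusted p = 0.618).

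At the entry of pyruvate into mitochondria, no gene was higher (13.9% of all genes were) and 2 of 6 were lower (33.3%, against 17.3% of all genes). Pdk2, a widely expressed PDK, read 7.783, 7.818 and 7.074 after tamoxifen, against 9.997, 9.801 and 10.159 in vehicle. Its difference of -2.43 ± 0.22 (adjusted p = 8.81e-04) was 5.38-fold, and 86 of the 14217 genes had a larger fall. The second Pdk2 probe set, at 7.51, 7.54 and 7.17 after tamoxifen and 8.57, 9.22 and 9.35 in vehicle, gave -1.64 ± 0.22.

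The other PDKs did not follow. Pdk1, a PDK induced by hypoxia in many cells, had probe sets of opposite sign, at -0.26 ± 0.18 and 0.42 ± 0.18, neither past the threshold (adjusted p = 0.360 and 0.147). The brighter probe set gave -0.06 without vehicle array 1. Pdk4, the PDK of fasting, read 5.51 to 5.62 after tamoxifen and 5.28 to 5.46 in vehicle (0.17 ± 0.09, adjusted p = 0.228). Its second probe set, near the floor of the array, was lower (-0.34, adjusted p = 0.0444).

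Pdhb, the beta subunit of the pyruvate dehydrogenase E1 enzyme, read 10.94, 10.94 and 10.79 after tamoxifen, against 11.35, 11.37 and 11.19 in vehicle (-0.41 ± 0.09, adjusted p = 0.0205). The call was lost without tamoxifen array 2 or 3 or vehicle array 2 (adjusted p of 0.0536 to 0.0675) and without both arrays of experiment 1 (0.0842). The alpha subunit gene Pdha1 gave -0.13 and 0.25 by its probe sets, neither past the threshold. Pc, pyruvate carboxylase, which feeds pyruvate in as oxaloacetate, showed -0.40 ± 0.19 (adjusted p = 0.192), and -0.18 without vehicle array 1, the array with weak 5′ signal.

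Of 7 measured TCA cycle genes, 3 were higher (42.9%, against 13.9% of all genes) and 1 was lower (14.3%, against 17.3%). The remaining 3 did not pass, and all 7 changes were of less than 1 log2 unit. Idh3a, the catalytic subunit of the NAD-linked isocitrate dehydrogenase, read 9.26, 9.26 and 9.61 after tamoxifen, against 8.85, 8.64 and 8.67 in vehicle (0.66 ± 0.13, adjusted p = 0.0117). Mdh2, the mitochondrial malate dehydrogenase, read 11.68, 11.76 and 11.94 after tamoxifen, against 11.17, 11.17 and 11.16 in vehicle (0.63 ± 0.09, adjusted p = 0.0047). Both calls held without any single array. Without moderation of the variances the call of Idh3a was lost (adjusted p = 0.0576).

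Cs, the citrate synthase that opens the cycle, was higher by 0.34 ± 0.10 (adjusted p = 0.0419) by its brightest probe set. It read 11.77, 11.69 and 11.83 after tamoxifen, against 11.55, 11.33 and 11.38 in vehicle. This call was lost with experiments as a block (0.0548), with each other scaling between arrays (0.0526 to 0.0724) and without any array but vehicle array 1 (0.0789 to 0.124). Without both arrays of experiment 1 it was lost as well (0.0637). Its next probe sets gave larger rises, of 0.82 ± 0.18 (adjusted p = 0.0190) and 0.64 ± 0.14 (adjusted p = 0.0175), and the dimmest gave 0.11.

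Mdh1, the cytosolic malate dehydrogenase of the malate-aspartate shuttle, was lower, at 11.75, 11.91 and 11.71 after tamoxifen against 12.18, 12.13 and 12.11 in vehicle (-0.35 ± 0.09, adjusted p = 0.0322). The call was lost with experiments as a block (0.0530), without any array but tamoxifen array 2 (0.0693 to 0.101) and without both arrays of experiment 1 (0.151). The dimmer Mdh1 probe set was lower by more (-0.69 ± 0.12, adjusted p = 0.0078). Idh2 (0.10 ± 0.12), Ogdh (-0.04 ± 0.19) and Suclg1 (0.17 ± 0.09), the mitochondrial NADP-linked isocitrate dehydrogenase, a subunit of oxoglutarate dehydrogenase and a subunit of succinate-CoA ligase, did not pass.

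Alternative family members were then compared by the difference between their changes, computed within each array, for 12 pairs. The SE given for a pair comes from the spread of the pair's values within each group, not from limma's fit. With 3 arrays against 3 the smallest two-sided exact permutation p is 0.1, or 0.12 after adjustment over the 12 pairs, so no pair could pass 0.05. For 10 pairs the groups did not overlap, which fixes the exact permutation p at this smallest value. The pairs were drawn from members chosen with earlier results known, and no share over other gene pairs was set beside this count. Slc2a3 changed by 3.61 ± 0.30 more than Slc2a1, which may be a minimum value because of the dim Slc2a3 vehicle arrays. Pfkp changed by 2.81 ± 0.28 more than Pfkm and by 1.34 ± 0.26 more than Pfkl. Eno1 changed by 1.63 ± 0.27 more than Eno2 and Ldha by 0.61 ± 0.14 more than Ldhb. Hk2 changed by 1.56 ± 0.51 more than Hk1 by its brightest probe set. The 3 Hk1 control probe sets, which were 0.54 to 0.84 higher without a test, were not used for this pair. The change of Aldoa exceeded that of Aldoc by 0.92 ± 0.62, of which 0.31 was left without vehicle array 3. Slc16a3 changed less than Slc16a1 (-1.95 ± 0.32) and Mdh1 less than Mdh2 (-0.98 ± 0.12), while Pdk1 minus Pdk2 gave 2.17 ± 0.34. That these 10 differences had the same sign in all 3 experiments follows from the groups not overlapping. Pdk1 minus Pdk4 also had the same sign in all 3. For Pfkfb3 minus Pfkfb2 (0.19 ± 0.11) and Pdk1 minus Pdk4 (-0.43 ± 0.26) the groups overlapped (exact permutation p = 0.2 each).

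**Figure D3:**
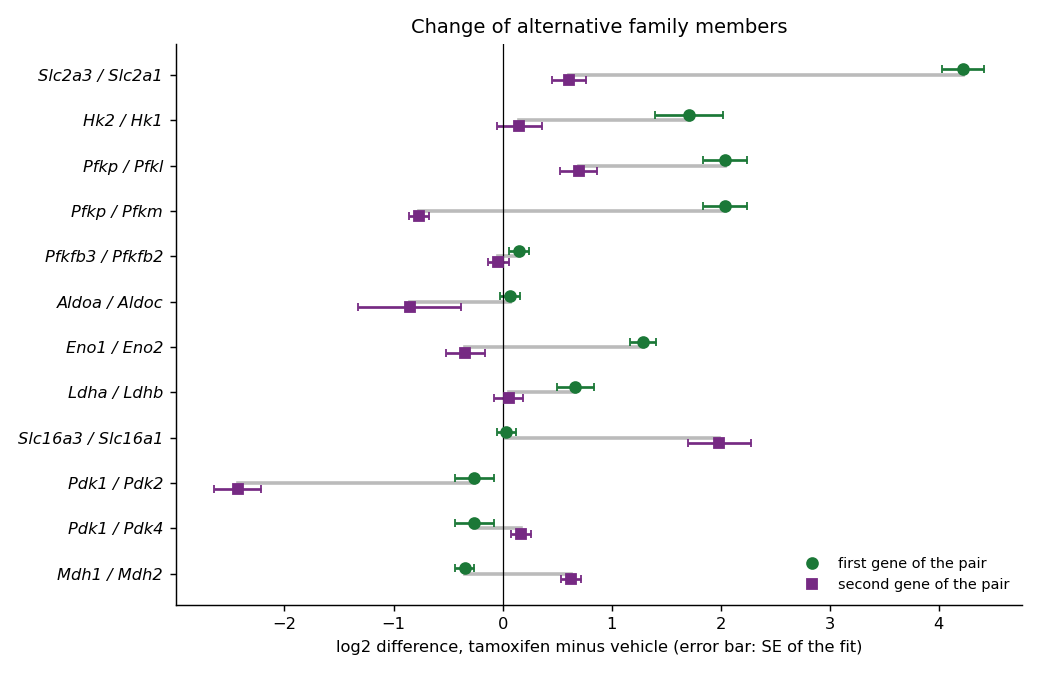
For each of 12 pairs of family members, the horizontal axis gives the log2 difference, tamoxifen minus vehicle, of the first (circle) and second gene (square), with SE bars and a grey line between them. The longest lines join Slc2a3 with Slc2a1, Pfkp with Pfkm and Pdk1 with Pdk2.

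The size of the response differed between experiments. Of the 19 members past the threshold, 14 (73.7%) had their largest change in experiment 3, against 58.9% of all genes past the threshold. For Hk2 the rise was 1.503, 1.136 and 2.495 in experiments 1, 2 and 3. For Pdk2 the differences were -2.21, -1.98 and -3.08.

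Among 72 measured other genes of these pathways, 10 were higher (13.9%) and 14 lower (19.4%), with a median change of 0.03. These shares lie near those over all genes, 13.9% higher and 17.3% lower. The 8 largest rises past the threshold were in Slc25a13 (1.74 ± 0.18), the mitochondrial aspartate-glutamate carrier citrin, in Prps2 (1.64 ± 0.18) and Prps1 (1.25 ± 0.15), which turn ribose 5-phosphate into the nucleotide precursor PRPP, and in Emb (1.55 ± 0.20), an accessory protein of monocarboxylate carriers. They also included G6pc3 (1.29 ± 0.12), a glucose 6-phosphatase, the NADPH-forming malic enzyme Me1 (1.11 ± 0.27), the pyruvate dehydrogenase phosphatase Pdp2 (0.99 ± 0.15) and the carrier gene Slc2a6 (0.64 ± 0.12). The further probe sets of Slc25a13, Prps1, Prps2, Me1 and Pdp2 rose as well. The call of Me1 was lost without any tamoxifen array or vehicle array 1 (adjusted p up to 0.0825) and without both arrays of experiment 1 (0.134).

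The 8 largest falls past the threshold were in the inositol carrier Slc2a13 (-2.04 ± 0.37), the monocarboxylate carrier Slc16a7 (-1.86 ± 0.30, to 4.61, below the 40th percentile), the galactose mutarotase Galm (-1.53 ± 0.13) and the cytosolic isocitrate dehydrogenase Idh1 (-1.42 ± 0.22). They were followed by the ribokinase Rbks (-1.30 ± 0.20), the D-lactate dehydrogenase Ldhd (-1.09 ± 0.11), Mpc1 (-0.72 ± 0.16), a subunit of the mitochondrial pyruvate carrier, and the bisphosphoglycerate mutase Bpgm (-0.66 ± 0.12). Second probe sets gave smaller falls for Slc2a13 (-0.64) and Galm (-0.73). They did not pass for Idh1 (-0.17, near the floor of the array), Ldhd (-0.47, adjusted p = 0.0618) and Bpgm (-0.57, adjusted p = 0.0562). The call of Mpc1 was lost without tamoxifen array 1 or 3 or vehicle array 2 (adjusted p up to 0.0633) and without both arrays of experiment 1 (0.109).

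Regulators of glucose genes and hypoxia genes outside glucose metabolism were read beside the members. Of 30 measured, 7 were higher and 7 lower (23.3% each, against 13.9% and 17.3% of all genes), with a median of 0.02. Without tamoxifen array 2 or vehicle array 2 only 4 were higher. Without moderation of the variances 4 were higher and 4 lower, and against a minimum fold of 1.5 the counts were 1 and 2. Myc, a transcription factor that acts on many glycolytic genes, read 11.07, 11.30 and 11.77 after tamoxifen, against 7.96, 8.07 and 8.19 in vehicle (3.31 ± 0.18, adjusted p = 1.85e-04). The other largest rises past the threshold were in Bhlhe40 (1.79 ± 0.44), Mycn (1.27 ± 0.33) and Higd1a (1.24 ± 0.16). The vehicle mean of Bhlhe40 (4.61) lay below the 40th percentile (5.67), so its rise may be a minimum value. The call of Bhlhe40 was lost without tamoxifen array 2 or vehicle array 1 or 2 (adjusted p up to 0.0789). That of Mycn held only in the run without vehicle array 3, among runs with 1 array left out (up to 0.105). The largest falls past the threshold were in Ddit4 (-2.24 ± 0.22), a growth inhibitor induced by hypoxia and stress, in Mxi1 (-1.80 ± 0.23), an antagonist of MYC, and in the mitophagy genes Bnip3l (-1.01 ± 0.16) and Bnip3 (-0.88 ± 0.18), the last lost without both arrays of experiment 1 (adjusted p = 0.0754). Of 14 hypoxia genes on this list 3 were higher (21.4%, against 13.9% of all genes) and 5 lower (35.7%, against 17.3% of all genes). The HIF subunit gene Hif1a showed 0.02 ± 0.13 (adjusted p = 0.927). Epas1, which encodes HIF-2 alpha and was picked out after its values were seen, showed -1.20 ± 0.48 (adjusted p = 0.120). It read 7.821, 7.504 and 8.788 after tamoxifen, against 9.129, 8.484 and 10.105 in vehicle. The groups overlapped, but within each experiment the tamoxifen array of Epas1 was the lower one.

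Promoter sequence was available for 37 of the 42 genes, in the RefSeq table of build GRCr8, as windows from 250 bases before to 50 after each start. Of the 37 genes, 12 were higher, 4 were lower, 18 did not pass and the rest were not tested. Over all genes measured, 13.9% were higher and 17.3% lower. Letters were searched on both strands. CACGTG, the E-box that MYC and related factors bind, was found in 6 of the 37 (16.2%), against 7.1% of 27457 genes in the table. Of those 6, Slc16a1 and Ldha were higher, Pdk2 and Pdhb lower, and Ogdh and Pfkfb3 did not pass. ACGTG, the core of the hypoxia response element, which lies within CACGTG too, was found in 18 (48.6%), against 20.9% of all. Of these 18, 4 were higher, 3 lower, 9 did not pass and 2 were not tested. CCGGAAG, an ETS factor motif, was found in 2 (5.4%, against 9.6% of all), Rpia and Mdh2. TGACTCA, the AP-1 motif, was found in 3 (8.1%, against 5.0% of all). A match describes the letters only and shows no binding.
The windows of Slc16a1 (chr2:194812410-194812709, plus strand), Ldha (chr1:106507842-106508141, plus strand) and Pdk2 (chr10:80483863-80484162, minus strand) are shown because these genes hold the same E-box letters and did not change in the same direction. They are written 5′ to 3′ with CACGTG in capitals, which begins at positions -216, -87 and -143 from the start.
Slc16a1: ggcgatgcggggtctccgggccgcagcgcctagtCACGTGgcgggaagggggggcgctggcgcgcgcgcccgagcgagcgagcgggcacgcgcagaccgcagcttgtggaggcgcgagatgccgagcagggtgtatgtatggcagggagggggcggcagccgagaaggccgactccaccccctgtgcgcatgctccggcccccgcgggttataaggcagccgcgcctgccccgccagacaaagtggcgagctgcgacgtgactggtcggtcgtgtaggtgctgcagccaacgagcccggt
Ldha: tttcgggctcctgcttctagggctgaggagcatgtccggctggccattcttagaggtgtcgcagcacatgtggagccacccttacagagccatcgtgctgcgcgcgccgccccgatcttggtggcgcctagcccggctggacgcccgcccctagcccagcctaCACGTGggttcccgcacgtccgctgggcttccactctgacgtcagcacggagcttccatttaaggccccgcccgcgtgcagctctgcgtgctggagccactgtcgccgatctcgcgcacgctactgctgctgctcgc
Pdk2: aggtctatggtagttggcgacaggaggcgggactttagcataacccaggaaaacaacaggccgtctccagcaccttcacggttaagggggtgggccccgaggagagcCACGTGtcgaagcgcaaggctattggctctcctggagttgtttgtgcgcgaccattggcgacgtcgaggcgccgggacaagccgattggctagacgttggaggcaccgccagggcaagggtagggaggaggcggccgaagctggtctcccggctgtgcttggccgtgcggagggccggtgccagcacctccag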

How the data were processed

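Total RNA of 6 cultures, purified on Qiagen RNeasy columns (per the labels' protocols), was hybridised to Affymetrix rat arrays, 1 array per sample. The deposited values are log2 expression per probe set, made by the authors with RMA per the submitters' processing notes, which give no version. They ran from 2.99 to 14.58. RMA tends to understate changes of dim genes, and the number of arrays limits the precision.

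Groups came from the sample descriptions. Of 31099 probe sets, 57 manufacturer controls were left out, and 31042 were fitted with lmFit and eBayes of limma 3.58.1 (R 4.3.3), two-sided, all 6 arrays, no covariates and no filter on low values. P-values were adjusted by Benjamini-Hochberg over all 31042, with a threshold of 0.05. Genes were named from probe sets with 1 symbol (20832, while 436 had several and 9831 were not listed), of which 20764 matched RefSeq by Entrez identifier. Each gene was called by its probe set of highest mean. Each limma p-value sets a difference against the spread between these arrays, with the variance moderated by use of all tested probe sets.

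The members and lists were chosen with earlier results of these data known. All 42 members are named, plus the up to 8 largest rises and falls past the threshold, with groups that do not overlap, among other pathway genes, and up to 4 each among regulators and hypoxia genes. Same-numbered arrays deviated together from their group means (correlations of 0.26, 0.20 and 0.28), which was taken as pairing by experiment, and the blocked fit was an alternative. Other alternatives were each array left out, both arrays of experiment 1 left out, other scalings, a dim filter, other variance models, array weights, a minimum fold, averaging all probe sets of a gene, and leaving out probe sets with the suffix s, x or a. The procedure was tested on simulated data.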

Additional observations from a re-analysis of the deposited data

How the results depend on the processing

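The member calls (15 higher, 4 lower) ranged from 10 to 13 higher and 2 to 3 lower with 1 array left out. With the experiment as a block (replicate block), all 24 other named genes past the threshold held. The member calls were 13 and 3 there, with Slc2a1, Cs and Mdh1 lost and no other member call changed. Without both arrays of experiment 1 they were 11 and 2, without moderation of the variances 7 and 3, and against a minimum fold of 1.5 they were 5 and 1, each of these calls also among the 19. Without moderation the losses were Slc2a1, Hk2, Pfkl, Ldha, Pgd, Tkt, Cs, Idh3a and Mdh1, and the minimum fold left Slc2a3, Pfkp, Eno1, Slc16a1, Rpia and Pdk2. Over all probe sets (3574 higher, 4004 lower), leaving out 1 array gave 2427 to 3424 higher and 2668 to 3771 lower. No moderation gave 1957 and 1715, and the minimum fold 833 and 615. The other pathway genes (10 and 14) gave 6 lower without moderation, and 5 and 3 with the minimum fold. The regulators and hypoxia genes (7 and 7) gave 7 and 9 with the block, 4 and 4 without moderation, and 1 and 2 with the minimum fold. Without moderation the calls of Bhlhe40, Mycn and Bnip3 were lost (adjusted p of 0.0784 to 0.132), and the minimum fold left Myc, Ddit4 and Mxi1. Of the 19 member calls, 12 held in every run with 1 array left out (10 higher, 2 lower), and no called member changed sign in any alternative. The cause of these losses was not tested.

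With the mean of all probe sets, the pair differences were 3.00 for Slc2a3 minus Slc2a1, 2.46 for Pfkp minus Pfkm, 0.97 for Pfkfb3 minus Pfkfb2, -1.03 for Slc16a3 minus Slc16a1 and -1.14 for Mdh1 minus Mdh2, and Pdk1 minus Pdk4 turned to 0.16. Sign changes were all among members that did not pass. With 1 array left out, the range was -0.14 to 0.036 for Gpi, -0.077 to 0.0034 for Slc2a4, -0.14 to 0.16 for Ogdh, -0.10 to 0.0097 for Pfkfb2, -0.060 to 0.13 for Ldhb, -0.018 to 0.066 for Slc16a3 and -0.016 to 0.38 for Hk1. Without both arrays of experiment 1, Gpi gave 0.068 and Ogdh 0.14. Slc16a3 gave -0.0029 with median centring and -0.0039 with quantile normalization. Cyclic loess gave 0.0086 for Gpi, -0.0026 for Aldoa and 0.027 for Ogdh, and array weights 0.011 for Ogdh. The mean of all probe sets gave 0.029 for Slc2a4, 0.079 for Pdk1, -0.085 for Pdk4 and 0.057 for Pdha1, and leaving out suffixed probe sets 0.081 for Slc2a4. The files hold no detection calls, so how far dim members lie above background is unknown.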
